A study of Mus musculus with 8 samples.

Results

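The Hedgehog and PTHrP growth-plate loop was followed through 9 genes, taken by name because they encode its ligands, receptors, transducers and inhibitors: *Ihh*, *Ptch1*, *Smo*, *Gli1*, *Gli2*, *Gli3*, *Hhip*, *Pthlh* and *Pth1r*. They are 9 of the 52325 gene identifiers measured. All 9 were among the 17177 genes tested because they reached 0.5 TPM in 4 or more of the 8 libraries. TPM is transcript abundance scaled by transcript length and library total. *Ihh* and *Hhip* reached 0.5 TPM in 4 libraries each, so they were measured near that limit. The libraries are polyadenylated RNA of costal (rib) chondrocytes, the cells of rib cartilage, freed with collagenase from 7-day-old mice of C57BL/6J background, 4 wild-type and 4 *Mir140*-null. The *Mir140*-null line carries a germline CRISPR/Cas9 deletion of the *Mir140* locus, made in embryos of mixed C57BL/6 and CBA/ca origin and crossed back to C57BL/6J, and both lines descend from heterozygous parents. The sources used here do not say whether each library is 1 animal, so p-values measure the spread between these libraries, which may be partly technical.

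In the growth plate, Indian hedgehog (*Ihh*) is secreted by prehypertrophic chondrocytes and acts on neighbouring chondrocytes and perichondrium. It binds Patched 1 (*Ptch1*), which otherwise holds Smoothened (*Smo*) inactive. Smoothened then moves into the primary cilium and alters the processing of the GLI transcription factors. Hedgehog signalling maintains *Pthlh*, which encodes parathyroid hormone-related protein (PTHrP) in resting and periarticular chondrocytes. PTHrP acts on its receptor *Pth1r* in proliferating chondrocytes, through Gs protein and cyclic AMP, to delay hypertrophy and so the onset of *Ihh* expression. *Ptch1*, *Gli1* and *Hhip* are themselves Hedgehog target genes and are widely read as gauges of the pathway.

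The deleted locus encodes miR-140, so the 3'UTRs of the 9 genes were searched for matches to the seeds (bases 2 to 8) of the miR-140-3p isomiRs, which are shown here because the deletion removes them. The canonical form and the form that starts 1 base later, both read from the plus strand of mm10 at chr8:107551288-107551308 (RefSeq), are printed 5′ to 3′ with the seed in capitals:
miR-140-3p.2: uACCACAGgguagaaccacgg
miR-140-3p.1: aCCACAGGguagaaccacgg
miR-140-5p was not searched. A match is a 7m8 site (complement of the whole seed), a 7a1 site (complement of bases 2 to 7, then A) or an 8mer site (both). The longest annotated 3'UTR held a match in 6 of the 9 genes. Among the 12982 tested genes with an annotated 3'UTR, 41.8% held a match to either isomiR. *Ptch1* held the most, with 3 matches to the canonical isomiR and 1 to the shifted one, in a 3'UTR of 3205 bases. Its single 8mer was the only 8mer among the 9 genes, and the miR-140-3p.1 match overlapped it. The 8mer of *Ptch1* and the 7m8 sites of *Smo* and *Gli3* are printed with flanking bases, 5′ to 3′ on the gene's strand, with the match in capitals:
*Ptch1*, miR-140-3p.2 8mer, chr13:63510646-63510675, minus strand: atatcacaaccCTGTGGTAggatgaattgt
*Smo*, miR-140-3p.2 7m8, chr6:29760601-29760630, plus strand: cccagagtgggCTGTGGTggtctgtgaggt
*Gli3*, miR-140-3p.1 7m8, chr13:15729854-15729883, plus strand: ccttggaaaagCCTGTGGctgctcagtgct
*Smo* held this 1 match in 1080 bases, *Gli3* its 1 match in 3245, *Ihh* 1 in 774, *Gli2* 2 in 1653 and *Hhip* 2 in 6480. None was found in the 3'UTRs of *Gli1* (165 bases), *Pth1r* (169) or *Pthlh* (467), which are the shortest of the 9. In the predicted target lists used by the study, *Ptch1* stood on those of both isomiRs, *Hhip* on that of miR-140-3p.1 and *Gli3* on that of miR-140-5p. These lists are predictions for human genes, set against the mouse genes here by symbol alone. Of all genes tested, 3.04% stood on the list of miR-140-3p.1, 2.24% on that of miR-140-3p.2 and 2.08% on that of miR-140-5p. A match is a description of sequence and not evidence that it is used.

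**Figure D1:**
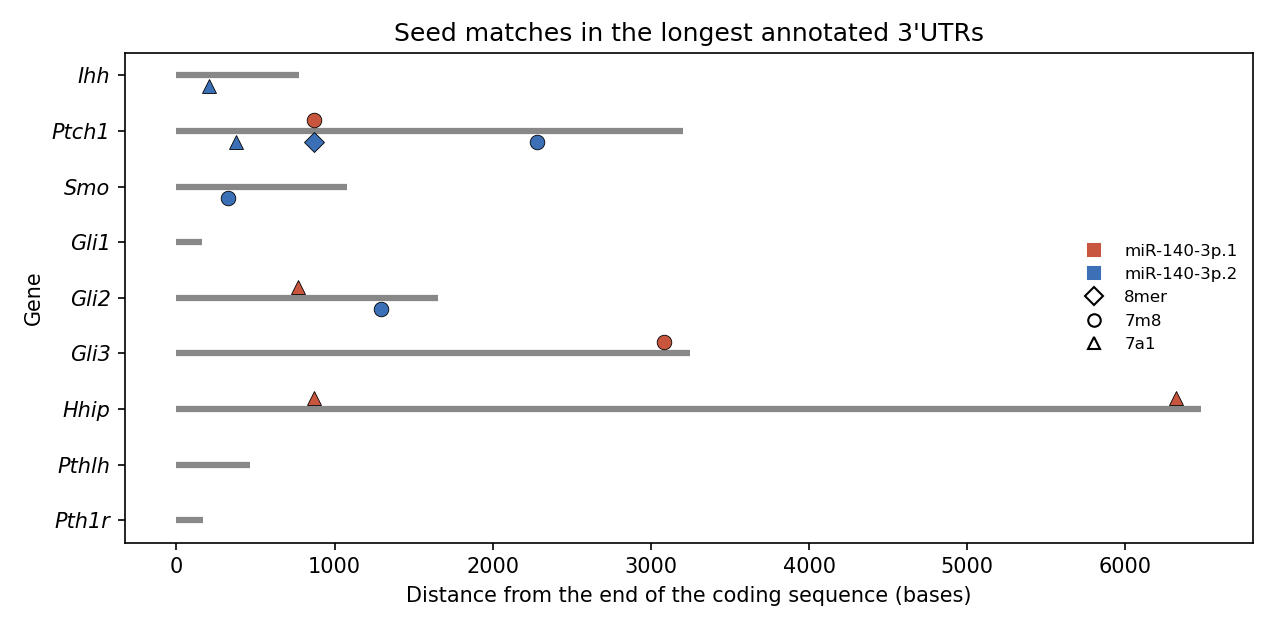
Seed matches of the miR-140-3p isomiRs in the longest annotated 3'UTR of each loop gene. Each grey bar is a 3'UTR to scale, with distance in bases from the end of the coding sequence. Symbols above the bar mark miR-140-3p.1 and symbols below mark miR-140-3p.2, with the shape giving the site type. *Ptch1* has 4 symbols, and *Gli1*, *Pthlh* and *Pth1r* have none.

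Between the genotypes, none of the 9 loop genes was called at an adjusted p below 0.05, against 16.9% of all genes tested (limma on log2(TPM + 1), Benjamini-Hochberg over 17177 genes). At an unadjusted p below 0.05 there was 1 of 9, *Smo*, against 33.9% of all genes tested. *Smo* was also the only member whose wild-type and *Mir140*-null libraries did not overlap, against 25.9% of all genes tested. The fitted log2 fold change (*Mir140*-null minus wild-type) was below 0 for 6 of the 9 and above 0 for 3. Its median over the 9 was -0.07, beside -0.01 over all genes tested. In such bulk RNA, fewer cells of a type and less RNA per cell cannot be told apart.

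The samples differed in ways beyond genotype. *Mir140*-null replicates 1 and 2 held little RNA of fibrous tissue: the summed TPM of 6 perichondrium and fibroblast markers was 247 and 252, against 2089 to 4336 in the other 6 libraries. Of these 6 markers, 5 were lower in both than in every other library. The 6 did not all move alike: with all 8 libraries 1 was called higher in *Mir140*-null and 0 lower (16.9% of all genes tested were called). With wild-type set against *Mir140*-null replicates 1 and 2 alone, 1 was called higher and 5 lower (23.9%). The summed markers of osteoblasts (3.94 and 5.50 TPM, against 10.5 to 18.1 in the other 6 libraries), macrophages and leukocytes, erythroid cells, endothelium and dividing cells were also lowest in these replicates. Mitochondrially encoded RNA took 4.06 to 6.99% of TPM in wild-type and 8.41 to 10.1% in *Mir140*-null libraries. The part of these differences in the results was not tested. The 9 chondrocyte markers (*Col2a1*, *Acan*, *Sox9* and others) were tested in full and summed to 56449 to 70957 TPM in wild-type libraries, against 41898 to 57317 TPM in *Mir140*-null ones. These 9 did not all move alike: 1 was called higher in *Mir140*-null libraries and 2 lower, against 16.9% of all genes tested. Without *Mir140*-null replicates 1 and 2, 0 were called (against 3.3%). Without replicates 3 and 4, 2 were called higher and 1 lower (against 23.9%). The *Mir140* hairpin stood at 8.86 TPM in *Mir140*-null replicate 2 and was listed at 0 in the other 7 libraries, wild-type ones included, so with mRNA libraries it does not check the genotypes. The loop genes and the 14 genes named by rule from the pathway lists are therefore also given without *Mir140*-null replicates 1 and 2. As the counterpart they are given without replicates 3 and 4. Both fits were chosen after the values were seen.

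*Ihh* (ENSMUSG00000006538, mm10 chr1:74945315-74951672, minus strand), the ligand that starts the loop, was the lowest of the 9 genes in wild-type chondrocytes. Wild-type replicates 1 to 4 held 0.695, 0.456, 0.158 and 0.461 TPM, and *Mir140*-null replicates 1 to 4 held 0.729, 1.10, 0.550 and 0.427 TPM. The highest values came from *Mir140*-null replicates 1 and 2, and the groups overlapped. The means were 0.443 ± 0.220 and 0.701 ± 0.292 TPM (SD, n = 4). Its log2 fold change was 0.24, with a 95% interval from -0.14 to 0.61 (adjusted p = 0.337). Without *Mir140*-null replicates 1 and 2 it was 0.06, and without replicates 3 and 4 it was 0.41. A fold change on log2(TPM + 1) understates changes at such low levels, and with a pseudocount of 0.1 it was 0.60 (adjusted p = 0.353). The summed markers of hypertrophic chondrocytes, the neighbours of the *Ihh*-expressing cells, were 152 to 337 TPM in wild-type libraries, against 161 to 271 TPM in *Mir140*-null ones. Of the 5 hypertrophic markers tested, 1 was called (against 16.9% of all genes tested), *Panx3*, which was lower by a log2 fold change of -1.02. Without *Mir140*-null replicates 1 and 2, 1 of the 5 was called higher and 0 lower (against 3.3%). Without replicates 3 and 4, 0 were called higher and 2 lower (against 23.9%). With a replicate block 0 were called.

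*Pthlh* (ENSMUSG00000048776, chr6:147252101-147264183, minus strand), the other ligand, held 1.55, 2.30, 1.57 and 1.84 TPM in wild-type replicates 1 to 4, and 1.46, 2.49, 1.83 and 2.74 TPM in the corresponding *Mir140*-null replicates. The groups overlapped, and the *Mir140*-null libraries spread wider, with both the lowest and the highest value. The fitted log2 fold change was 0.14, with a 95% interval from -0.25 to 0.53 (adjusted p = 0.583). It stayed above 0 when each library was left out in turn, from 0.05 to 0.25, and was 0.22 without *Mir140*-null replicates 1 and 2 and 0.07 without replicates 3 and 4. Beside it, the summed markers of resting and periarticular chondrocytes, where *Pthlh* is made, did not overlap: 724 to 863 TPM in wild-type libraries, against 1080 to 1455 TPM in *Mir140*-null ones. Of these 4 markers, 1 was called (against 16.9% of all genes tested), *Ucma*, a secreted cartilage matrix protein, with a log2 fold change of 0.64. *Ucma* made up most of the sum. Without *Mir140*-null replicates 1 and 2, 0 of the 4 were called (against 3.3%), as with a replicate block (against 6.55%). Without replicates 3 and 4, 1 was called higher (against 23.9%). The part of cell makeup in the *Pthlh* values was not tested.

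*Ptch1* (ENSMUSG00000021466, chr13:63508328-63573598, minus strand), the Hedgehog receptor and a Hedgehog target gene, had the lowest log2 fold change of the 9. It held 5.75, 5.40, 8.61 and 12.0 TPM in wild-type replicates 1 to 4, and 3.92, 4.07, 7.47 and 4.26 TPM in the corresponding *Mir140*-null replicates. In the *Mir140*-null group 3 libraries lay below every wild-type library, while replicate 3 lay between the wild-type values. The means were 7.93 ± 3.06 and 4.93 ± 1.70 TPM (SD, n = 4), a ratio of 0.621. The log2 fold change was -0.57, with a 95% interval from -1.20 to 0.06 (adjusted p = 0.187), so the difference did not exceed the spread between replicates by this test. It was -0.36 without *Mir140*-null replicates 1 and 2 (adjusted p = 0.579) and -0.78 without replicates 3 and 4 (adjusted p = 0.118). Leaving out each library in turn gave values from -0.75 to -0.37.

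*Smo* (ENSMUSG00000001761, chr6:29735503-29761365, plus strand), the transducer that Patched 1 restrains, stood out by its groups. Wild-type replicates 1 to 4 held 15.9, 17.1, 16.9 and 16.8 TPM, and *Mir140*-null replicates 1 to 4 held 9.16, 11.5, 14.5 and 14.1 TPM. Every *Mir140*-null library lay below every wild-type library, and replicates 1 and 2 lay lowest. The means were 16.7 ± 0.54 and 12.3 ± 2.48 TPM (SD, n = 4), a ratio of 0.738. Its log2 fold change was -0.43, with a 95% interval from -0.77 to -0.08, and the adjusted p of 0.0843 missed the threshold. *Smo* passed it after median-ratio scaling (-0.45, adjusted p = 0.0417; 15.6% of all genes tested were called), after quantile normalization (-0.50, adjusted p = 0.034; 15.3%) and after removal of 1 factor of variation estimated from residuals (-0.43, adjusted p = 0.0149; 26.1%). The factor from residuals is unrelated to genotype by construction. It leaves every fold change as it was and alters only the standard error, so this pass is weak support. *Smo* did not pass after removal of 1 factor estimated from the least changed genes (-0.22, adjusted p = 0.223; 8.18%) or with a replicate block (-0.43, adjusted p = 0.114; 6.55%). Nor did it pass with any 1 library left out, where the log2 fold change went from -0.51 to -0.31 (adjusted p from 0.0631 to 0.171). Without *Mir140*-null replicates 1 and 2, the low-fibroblast libraries, it was -0.21 (adjusted p = 0.26). Without replicates 3 and 4 it was -0.65 and called (adjusted p = 0.022), as were 23.9% of all genes tested. Wild-type libraries were alike for this gene, with a coefficient of variation of 3.23%, against a median of 15.8% over the 4681 genes within 2-fold of its level. In the *Mir140*-null libraries it was 20.1%, near the corresponding median of 19.3%. The part of the fibroblast share in the *Smo* values was not tested.

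*Hhip* (ENSMUSG00000064325, chr8:79965851-80058006, minus strand), which binds Hedgehog ligands at the cell surface and so limits the signal, held 0.641, 0.643, 0.979 and 0.257 TPM in wild-type replicates 1 to 4, and 0.254, 0.140, 0.849 and 0.429 TPM in the corresponding *Mir140*-null replicates. Both groups spread widely, with coefficients of variation of 46.9% and 74.5%, and they overlapped. The fitted log2 fold change was -0.21, with a 95% interval from -0.64 to 0.23 (adjusted p = 0.475). It turned to 0.01 without *Mir140*-null replicates 1 and 2 and was -0.43 without replicates 3 and 4.

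*Pth1r* (ENSMUSG00000032492, chr9:110722085-110747145, minus strand), the receptor that PTHrP binds, had the fitted difference nearest to 0 of the 9. It held 9.94, 11.5, 9.17 and 10.8 TPM in wild-type replicates 1 to 4, and 8.38, 11.2, 10.9 and 9.46 TPM in the corresponding *Mir140*-null replicates. The ranges nearly coincided, and the means were 10.4 ± 1.01 and 9.97 ± 1.30 TPM (SD, n = 4). The log2 fold change was -0.05, with the narrowest interval of the 9, from -0.35 to 0.25 (adjusted p = 0.808). It was 0.02 without *Mir140*-null replicate 1, the library with the lowest value, -0.02 without replicates 1 and 2 and -0.08 without replicates 3 and 4.

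*Gli1* (ENSMUSG00000025407, chr10:127329882-127341974, minus strand), the GLI activator whose own transcription follows Hedgehog signalling, held 5.84, 4.57, 5.80 and 5.03 TPM in wild-type replicates 1 to 4, and 3.94, 6.29, 7.39 and 5.65 TPM in the corresponding *Mir140*-null replicates. The *Mir140*-null libraries surrounded the wild-type range on both sides. The means were 5.31 ± 0.62 and 5.82 ± 1.44 TPM (SD, n = 4). Its log2 fold change was 0.09, with a 95% interval from -0.33 to 0.51 (adjusted p = 0.757). It turned to -0.02 without *Mir140*-null replicate 3 and to -0.07 without *Mir140*-null replicates 3 and 4, and was 0.25 without replicates 1 and 2. So *Gli1* and *Ptch1*, both target genes of the pathway, had fitted values of opposite sign, and neither was called.

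*Gli2* (ENSMUSG00000048402, chr1:118834132-119053619, minus strand), a main GLI activator, held 3.36, 5.16, 3.46 and 6.81 TPM in wild-type replicates 1 to 4, and 1.65, 3.52, 5.03 and 3.88 TPM in the corresponding *Mir140*-null replicates. *Mir140*-null replicate 1 lay below all other libraries, and the other 3 lay within the wild-type range. The fitted log2 fold change was -0.35, with a 95% interval from -1.02 to 0.32 (adjusted p = 0.431). It was -0.12 without *Mir140*-null replicate 1, -0.03 without replicates 1 and 2 and -0.67 without replicates 3 and 4, and was called in none of these fits. *Gli3* (ENSMUSG00000021318, chr13:15463235-15730026, plus strand), which acts mainly as a repressor when the pathway is off, held 4.78, 5.90, 7.62 and 9.61 TPM in wild-type replicates 1 to 4, and 4.00, 8.61, 6.29 and 7.54 TPM in the corresponding *Mir140*-null replicates. These groups overlapped over most of their range. The log2 fold change was -0.07, with a 95% interval from -0.67 to 0.52 (adjusted p = 0.872), and its sign was not stable: it was 0.12 without *Mir140*-null replicate 1 and 0.08 without wild-type replicate 4. The fit without *Mir140*-null replicates 1 and 2 gave 0.02, and that without replicates 3 and 4 gave -0.16. *Mir140*-null replicate 1 was the lowest of all 8 libraries for 7 of the 9 genes, *Ptch1*, *Smo*, *Gli1*, *Gli2*, *Gli3*, *Pthlh* and *Pth1r*. This library also had the fewest genes at 0.5 TPM or more, 15800. The share of all genes tested that were lowest in it was not counted, so this is not shown to be particular to the loop genes.

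**Figure D2:**
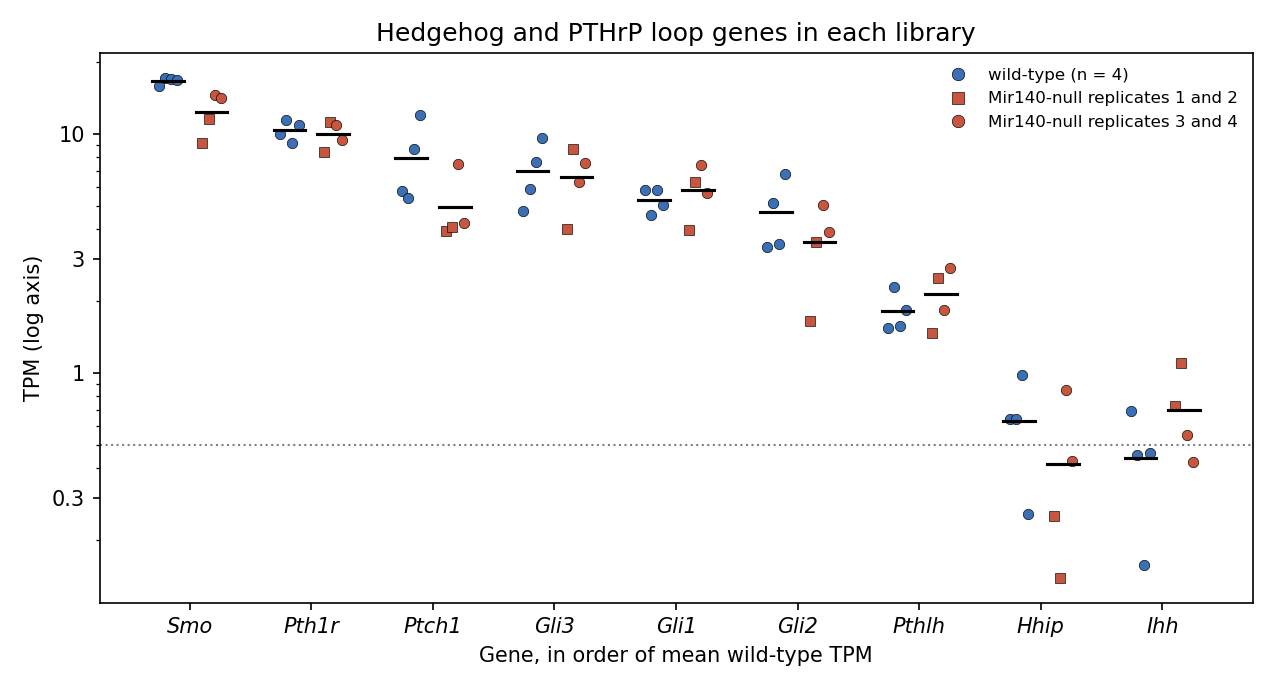
TPM of the 9 loop genes in each library on a log axis, with wild-type libraries in blue and *Mir140*-null libraries in red. Squares are *Mir140*-null replicates 1 and 2, horizontal lines are means of 4 libraries, and the dotted line is 0.5 TPM. Only for *Smo* do all *Mir140*-null points lie below all wild-type points.

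**Figure D3:**
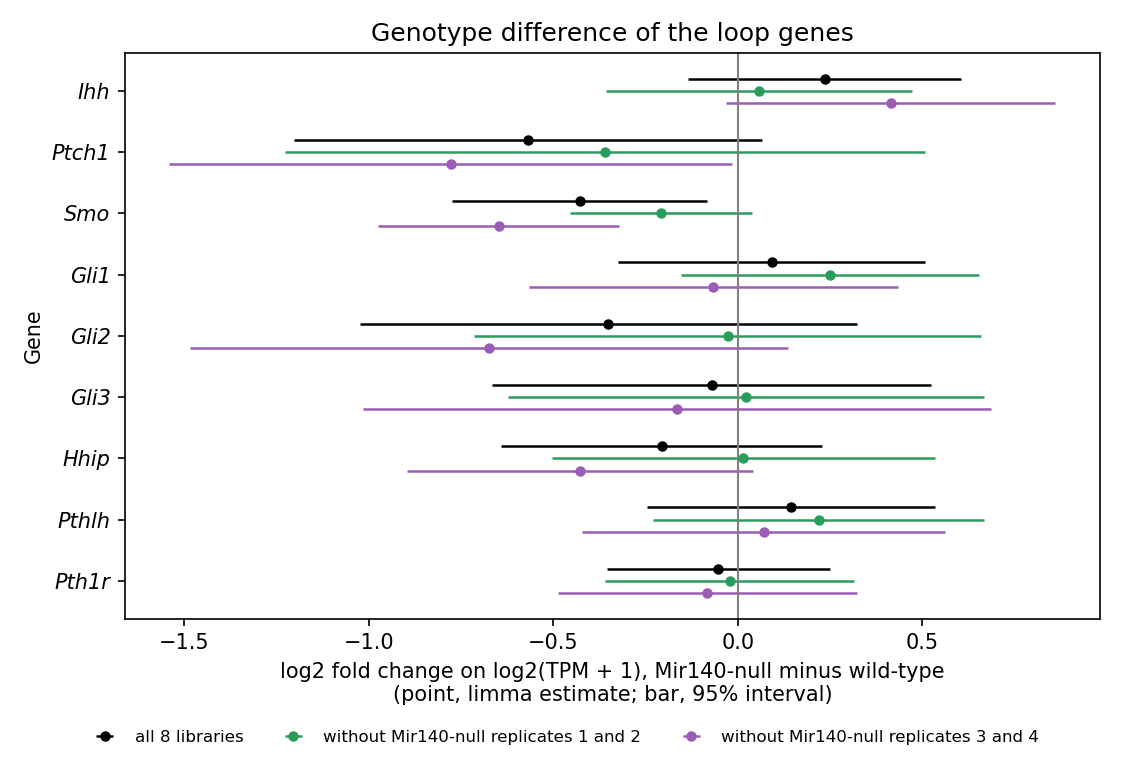
Log2 fold change of each loop gene on log2(TPM + 1), *Mir140*-null minus wild-type, with 95% intervals from limma, using all 8 libraries (black), without *Mir140*-null replicates 1 and 2 (green) and without replicates 3 and 4 (purple). With all libraries only the interval of *Smo*, from -0.77 to -0.08, leaves out 0, and it includes 0 without replicates 1 and 2.

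Because TPM are scaled by transcript length, levels of the 9 genes can be set side by side. In wild-type libraries the order of mean TPM was *Smo* (16.7), *Pth1r* (10.4), *Ptch1* (7.93), *Gli3* (6.98), *Gli1* (5.31), *Gli2* (4.70), *Pthlh* (1.81), *Hhip* (0.630) and *Ihh* (0.443). Of neighbours in this order, the ranges over libraries were apart between *Smo* and *Pth1r*, between *Gli2* and *Pthlh* and between *Pthlh* and *Hhip*, and overlapped for all others. In *Mir140*-null libraries *Ptch1* stood after *Gli3* and *Gli1*, and *Ihh* stood above *Hhip*, but those neighbours overlapped. Apart there were only *Pthlh* (2.13) and *Ihh* (0.701). The receptors and GLI factors were thus higher on average than the secreted ligands and *Hhip* in both genotypes. Against all genes tested, *Smo* stood at percentile 72.1 of mean wild-type TPM, *Pthlh* at 24.5 and *Ihh* at 1.25.

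**Figure D4:**
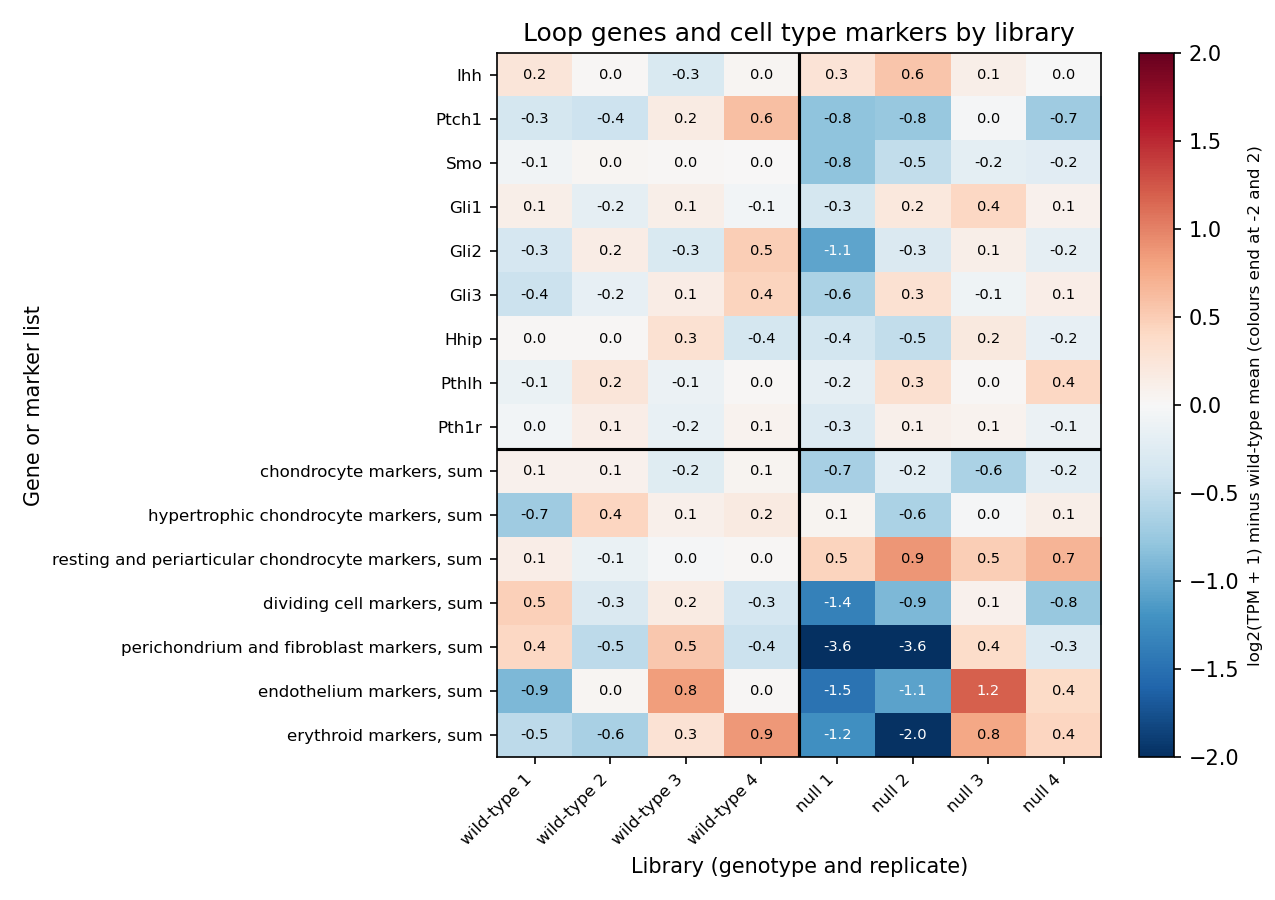
Each library's log2(TPM + 1) minus the wild-type mean, for the 9 loop genes (above the line) and for the summed TPM of 7 marker lists (below it). Blue is lower and red is higher than the wild-type mean, and colours end at -2 and 2. *Mir140*-null replicates 1 and 2 are dark blue for perichondrium and fibroblast markers, and *Smo* is blue in all 4 *Mir140*-null libraries.

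The other genes of the loop were read from 7 lists. Of their 82 genes, 74 were tested, and 16 were called, 8 higher and 8 lower in *Mir140*-null libraries (21.6%, against 16.9% of all genes tested). The median log2 fold change of the 74 was -0.16. Without *Mir140*-null replicates 1 and 2, 3 were called higher and 0 lower, against 3.3% of all genes tested. With replicates 3 and 4 left out instead, 8 were called higher and 18 lower, against 23.9%. The called genes lay upstream and downstream of the 9 members and are taken in that order.

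Among genes for Hedgehog ligands and their release, 1 of 5 tested was called and none was lower. *Scube3*, a secreted protein of the family that helps release Hedgehog from cells, was measured at 11.2 to 15.4 TPM in wild-type libraries, against 20.2 to 35.2 TPM in *Mir140*-null ones. It rose by a log2 fold change of 0.96 (standard error 0.20, adjusted p = 0.0197), without overlap. The call was lost without *Mir140*-null replicate 2 and without wild-type replicate 3. *Scube3* stood higher in *Mir140*-null replicates 1 and 2 than in 3 and 4, and without the first pair it was 0.63 (adjusted p = 0.0843). Without replicates 3 and 4 it was 1.29 and called (adjusted p = 0.00663). *Shh* and *Dhh*, the other Hedgehog ligands, were below the filter in both genotypes.

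Of 5 other receptors, co-receptors and decoys tested, 1 was called. *Gpc3*, a cell-surface heparan sulfate proteoglycan that binds Hedgehog ligands and competes with Patched, was measured at 113 to 126 TPM in wild-type libraries, against 186 to 230.4 TPM in *Mir140*-null ones. It rose by 0.83 on the log2 scale (standard error 0.10, adjusted p = 0.00509), kept its call when each library was left out in turn, and kept it without *Mir140*-null replicates 1 and 2 (0.78, adjusted p = 0.0341) and without replicates 3 and 4 (0.87, adjusted p = 0.0065). The co-receptors *Cdon*, *Boc* and *Gas1* had log2 fold changes of -0.06, -0.36 and -0.50, none of them called.

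Of 12 other genes around the GLI factors, 2 rose and none fell. *Cul3*, a scaffold of the ubiquitin ligase that acts on GLI proteins with *Spop*, went from 78.5 ± 3.03 to 122 ± 7.45 TPM (SD, n = 4; log2 fold change 0.63, adjusted p = 0.0063). *Grk2*, a kinase that phosphorylates Smoothened and other receptors, went from 74.7 ± 5.90 to 107 ± 1.21 TPM (0.52, adjusted p = 0.0106). Both kept their calls with each library left out in turn. Without *Mir140*-null replicates 1 and 2 *Cul3* kept its call (0.56, adjusted p = 0.038) and *Grk2* did not (0.51, adjusted p = 0.0607). Without replicates 3 and 4 both were called, *Cul3* at 0.70 (adjusted p = 0.00872) and *Grk2* at 0.54 (adjusted p = 0.0229). Both proteins have many other substrates. *Sufu*, the main restraint on GLI factors, had a value of 0.39 and was not called.

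The primary cilium list, where Smoothened acts, had a median log2 fold change of -0.53 over its 12 genes, beside -0.01 over all genes tested, and 2 of the 12 were called, both lower (against 16.9% of all genes tested). *Ift80*, a subunit of the transport complex that carries cargo into the cilium, went from 29.2 ± 12.2 to 13.4 ± 4.57 TPM (SD, n = 4; -1.05, adjusted p = 0.0446). Its wild-type mean was raised by replicate 4 at 47.5 TPM, and with 1 library left out at a time the call held only without *Mir140*-null replicate 3. It was -0.85 without *Mir140*-null replicates 1 and 2 and not called (adjusted p = 0.229), and -1.24 without replicates 3 and 4 and called (adjusted p = 0.0431). *Ift88*, another subunit, went from 8.83 ± 0.50 to 5.97 ± 1.0 TPM (-0.51, adjusted p = 0.0403), without overlap, and lost its call whichever library was left out. It was -0.66 without *Mir140*-null replicates 1 and 2 (adjusted p = 0.0609) and -0.36 without replicates 3 and 4 (adjusted p = 0.0937). Over the list, none of the 12 was called without *Mir140*-null replicates 1 and 2 (median -0.30). Without replicates 3 and 4, 5 were called lower (median -0.55), in a fit that called 23.9% of all genes tested. After removal of 1 factor estimated from residuals 5 were called lower, in a fit that called 26.1%. Other settings called fewer: 1 lower after median-ratio scaling, 1 after quantile normalization, 1 with 1 factor from the least changed genes and 0 with a replicate block.

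Of the Hedgehog target genes other than *Ptch1*, *Gli1* and *Hhip*, 6 of 9 were tested and none was called. Their median log2 fold change was -0.12. *Bcl2*, an inhibitor of cell death, lay lower without overlap (1.48 ± 0.05 and 0.947 ± 0.313 TPM; -0.36, adjusted p = 0.0926). *Ccnd1* and *Ccnd2*, cyclins of the entry into the cell cycle, had values of -0.12 and 0.11.

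Downstream of *Pth1r*, 24 of 26 other genes were tested, 2 rose and 1 fell. *Gnas*, which encodes the stimulatory G protein alpha subunit, was the most abundant of them, at 1061 ± 20.2 TPM in wild-type libraries, against 820 ± 97.3 TPM in *Mir140*-null ones (SD, n = 4; -0.38, adjusted p = 0.0409). *Prkar1a*, the regulatory subunit that holds protein kinase A inactive, went from 53.0 ± 3.99 to 71.4 ± 8.18 TPM (0.42, adjusted p = 0.0371). *Creb1*, a transcription factor that protein kinase A activates, went from 4.07 ± 0.46 to 6.71 ± 1.33 TPM (0.59, adjusted p = 0.0355). These calls were near the threshold. With 1 library left out at a time, *Gnas* kept its call only without *Mir140*-null replicate 1, 3 or 4, *Prkar1a* without *Mir140*-null replicate 3 or 4, and *Creb1* without *Mir140*-null replicate 1 or 4 or wild-type replicate 1. None of the 3 was called without *Mir140*-null replicates 1 and 2 (-0.26, 0.29 and 0.51 for *Gnas*, *Prkar1a* and *Creb1*). All 3 were called without replicates 3 and 4 (-0.49, 0.55 and 0.67).

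The list of PTH receptor and cyclic AMP target genes had the most calls, 7 of 12, against 16.9% of all genes tested. Of these, 2 were higher and 5 lower, and the median log2 fold change of the list was -0.59. With a replicate block 0 were called higher and 1 lower, in a fit that called 6.55% of all genes tested. *Fos* went from 1668 ± 772 to 360.2 ± 143 TPM (SD, n = 4), a fall of 2.17 on the log2 scale (log2 fold change -2.17, adjusted p = 0.00993). *Nr4a2* went from 645 ± 204 to 271 ± 47.5 TPM (-1.20, adjusted p = 0.0169) and *Nr4a1* from 473 ± 151 to 218 ± 27.9 TPM (-1.07, adjusted p = 0.0168). The groups did not overlap for any of these 3, and each kept its call with every library left out in turn. With a replicate block *Fos* kept its call (adjusted p = 0.0431), while *Nr4a2* (adjusted p = 0.0624) and *Nr4a1* (adjusted p = 0.0606) lost theirs. They are immediate-early genes, which stress, growth factors and cell dissociation also induce. The remaining 2 lower genes were *Per1*, a circadian clock gene (-0.95), and *Nr4a3* (-0.50). *Rgs2*, a regulator of G protein signalling, rose from 36.8 ± 4.83 to 51.9 ± 4.39 TPM (0.49, adjusted p = 0.0292), a call that, with 1 library left out at a time, held only without *Mir140*-null replicate 3 or wild-type replicate 3. *Tnfsf11*, the osteoclast-differentiation ligand RANKL, rose from 0.835 ± 0.012 to 1.45 ± 0.268 TPM (0.41, adjusted p = 0.041), a call that among those fits held only without *Mir140*-null replicate 4. Without *Mir140*-null replicates 1 and 2 none of the 12 was called, though *Fos* had a value of -1.87 (adjusted p = 0.0776), *Nr4a2* -1.41 (adjusted p = 0.0629) and *Nr4a1* -1.09 (adjusted p = 0.0854). *Rgs2* was then 0.42 and *Tnfsf11* 0.40. That fit called 3.3% of all genes tested. Without replicates 3 and 4, 2 were called higher and 5 lower, in a fit that called 23.9% of all genes tested. There *Fos* was -2.47 (adjusted p = 0.0119), *Nr4a1* -1.05 (adjusted p = 0.0488), *Rgs2* 0.56 (adjusted p = 0.0436) and *Tnfsf11* 0.41 (adjusted p = 0.0417). *Nr4a2* was not called there (adjusted p = 0.0601).

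**Figure D5:**
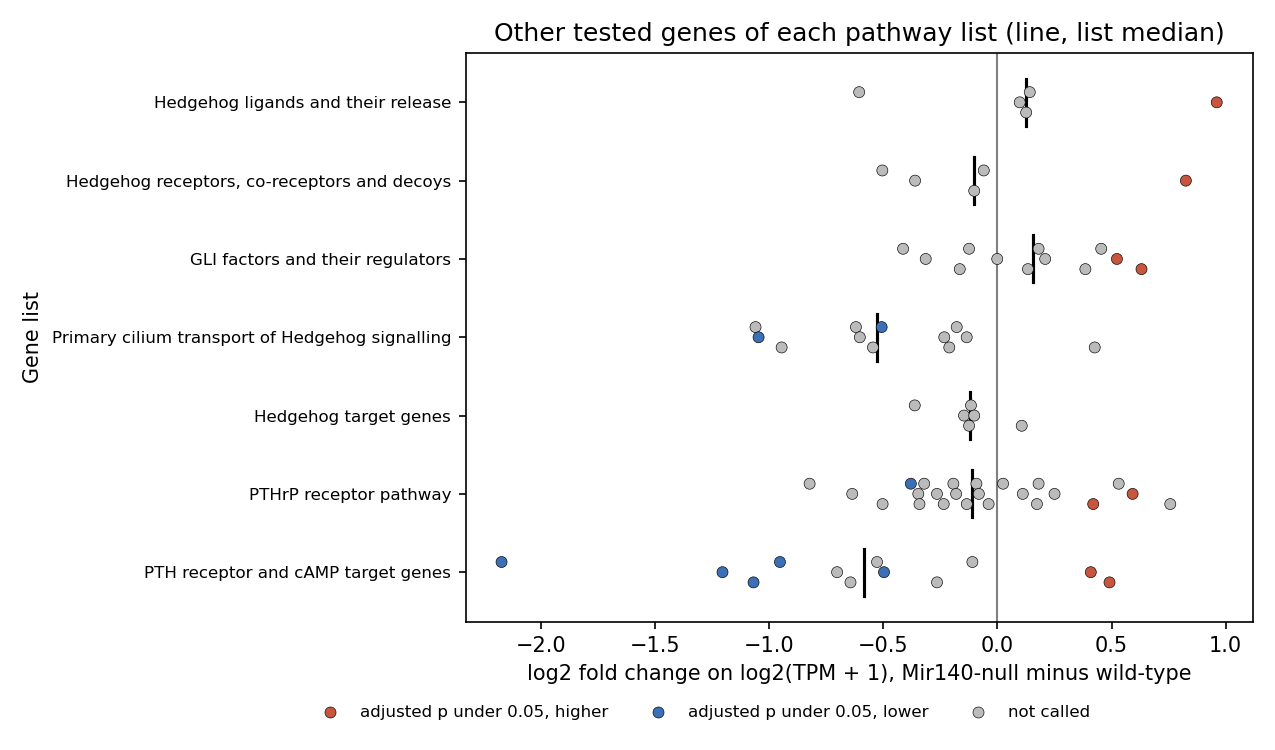
Log2 fold change on log2(TPM + 1), *Mir140*-null minus wild-type, of the other tested genes of the 7 pathway lists, with 1 point per gene and a vertical line at the list median. Red points are called higher, blue points called lower and grey points not called at an adjusted p of 0.05. Most points are grey. The cyclic AMP target list has 5 blue points and 2 red ones, the cilium list has 2 blue ones, and the called points of the ligand, receptor and GLI regulator lists are red.

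The promoters of 8 of the 9 genes (300 bases around each annotated start, RefSeq, GRCm38.p6, which is mm10) were searched on both strands for the GLI consensus GACCACCCA and its core ACCACCC. The consensus was in none of these windows and in 0.253% of all 32851 promoter windows. The core was in that of *Gli2* alone and in 4.61% of all windows. A window this short says nothing of sites elsewhere.

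As a description of how the genes moved among libraries, *Ihh*, *Ptch1*, *Gli1*, *Pthlh* and *Pth1r* were each set against 8008 or 8009 protein-coding genes with a mean of at least 5 TPM, after subtracting each genotype's mean. Over the 8 libraries the closest to *Ihh* were *Rela*, *Scfd1* and *Srrm1* (Pearson r 0.97, 0.96 and 0.96). For *Ptch1* they were *Commd9*, *Gtf3c6* and *Mrpl18* (0.96, 0.95 and 0.95), and for *Gli1* they were *Osgep*, *Rtl3* and *Ndufaf8* (0.97, 0.96 and 0.96). For *Pthlh* they were *Ogfod3*, *Mrc2* and *Itpr3* (0.98, 0.97 and 0.97), and for *Pth1r* they were *Grhpr*, *Pold4* and *Sp1* (0.98, 0.94 and 0.93). Without that subtraction, r in the same order was 0.94, 0.94 and 0.95 for *Ihh*. It was 0.56, 0.18 and 0.94 for *Ptch1* and 0.52, 0.54 and 0.92 for *Gli1*. For *Pthlh* it was 0.49, 0.41 and 0.43, and for *Pth1r* 0.67, 0.95 and 0.68. Genes below a mean of 5 TPM, among them *Ihh*, *Hhip*, *Pthlh* and *Gli2*, could not appear as closest genes. The points share library preparation, depth and cell makeup, and no p is given.

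Overlapping annotation bears on a few of these values. Exons of *Gli1* overlap those of *Arhgap9* on the opposite strand, and exons of *Pth1r* overlap those of *Myl3*, but both partners stayed below 0.72 TPM in every library. *Smo* and *Gli3* contain processed pseudogenes on the same strand whose exons they do not share. That in *Smo* was measured at 1.04 to 3.74 TPM and that in *Gli3* at 21.2 to 93.2 TPM, above *Gli3* itself. Exons of *Gli3* also overlap those of *Gm6556* on the opposite strand, at 0.341 to 1.13 TPM. Their part in the *Smo* and *Gli3* values was not tested.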

How the data were processed

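RNA-seq libraries (stranded mRNA kit, Illumina NextSeq500, single-end) came from 4 wild-type and 4 *Mir140*-null samples, grouped by the GEO titles. The authors quantified reads with Salmon on mm10 transcripts and deposited TPM per gene. Per the labels FastQC 0.11.7 and DESeq2 were also used, and the Salmon version is not given in the sources used here. TPM sum to 1000000 per library and keep no read counts. The paper gives only a lower bound on the reads of each sample. The reads behind a single value are therefore unknown, and no counting interval is given. The study modelled counts with factors of unwanted variation, which TPM do not allow.

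Repeated identifiers were counted once (52325, of which 99.8% matched GENCODE M21). Genes with at least 0.5 TPM in 4 or more of the 8 libraries were tested on log2(TPM + 1) with limma 3.58.1 (R 4.3.3; mean-variance trend, two-sided) by genotype, adjusted by Benjamini-Hochberg over 17177 genes and called below 0.05. The script was tested on simulated data, where it called 88 of 200 genes changed 2-fold (44%) and made 6 false calls. Only these 200 of 17177 genes were changed, all above a mean level that *Ihh*, *Hhip* and *Pthlh* do not reach. The simulated noise was independent between libraries and between genes. The share of true changes called in the real data is therefore unknown. A gene that was not called may still differ between the genotypes. Python 3.11.15 was used for all else. Alternatives were the pseudocount, filters, scalings, 1 factor of unwanted variation, library weights, a replicate block, leaving out libraries, and all annotated 3'UTRs.

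The 9 genes and the lists were chosen with earlier results of these data known. Other list genes were named where called, at most 3 per direction and list. Genes named outside this rule (*Cdon*, *Boc*, *Gas1*, *Sufu*, *Bcl2*, *Ccnd1*, *Ccnd2*, *Shh*, *Dhh*, *Per1*, *Nr4a3*) were chosen after their values were seen.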

Additional observations from a re-analysis of the deposited data

Results flagged for a closer look

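In *Ptch1*, *Mir140*-null replicate 3 lay at 7.47 TPM, far above the other 3 *Mir140*-null libraries (3.92 to 4.26 TPM). The gap took 0.905 of the group's range. In *Ift80*, wild-type replicate 4 lay at 47.5 TPM, far above the other 3 wild-type libraries, with a gap of 0.939 of the range. Both gaps were above the limit of Dixon's test for 4 values. These were 2 of 46 groups looked at (23 named genes in each genotype), and chance alone marks about 1 group in 20. Neither library stood apart for the other named genes by this measure.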

How the results depend on the processing

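Over the 9 loop genes, 172 of 185 alternative fits kept the direction and the side of the threshold. *Smo* was called lower, as the 1 member called, after median-ratio scaling (-0.45), quantile normalization (-0.50), 1 factor from residuals (-0.43) and, chosen after seeing the data, without *Mir140*-null replicates 3 and 4 (-0.65). Signs turned for *Gli3* (0.065 with 1 factor from the least changed genes, 0.022 without *Mir140*-null replicates 1 and 2), *Hhip* (0.0039 and 0.015 in the same fits) and *Gli1* (-0.066 without replicates 3 and 4). With each library left out in turn, *Gli1* ranged from -0.017 to 0.24, *Gli3* from -0.21 to 0.12 and *Pth1r* from -0.11 to 0.020. The cause of these turns was not tested. A search of all annotated 3'UTRs found matches in the same number of genes, 6.

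Over all genes, 1797 were called higher and 1100 lower. The counts were 979 and 426 with 1 factor from the least changed genes, 977 and 539 with no filter, 357 and 210 without *Mir140*-null replicates 1 and 2, 779 to 1553 and 419 to 1214 with 1 library left out. Lower calls were 2016 with 1 factor from residuals, 605 with a mean of at least 5 TPM and 2212 without *Mir140*-null replicates 3 and 4. Median-ratio scaling gave 1368 higher and 1320 lower, so higher calls were 50.9% against 62.0%.

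Of the other list genes (8 higher, 8 lower), 5 and 5 were called with 1 factor from the least changed genes, 4 and 5 with no filter, 3 and 0 without *Mir140*-null replicates 1 and 2, and 3 to 7 and 3 to 9 with 1 library left out, the fewest without *Mir140*-null replicate 2 (higher) and wild-type replicate 4 (lower). Higher calls were 5 with median-ratio scaling. Lower calls were 17 with 1 factor from residuals and 18 without *Mir140*-null replicates 3 and 4. The 14 named ones kept their calls in 201 of 293 fits.

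Deviations of same-numbered libraries correlated at 0.031, 0.016, 0.069 and -0.009, so they showed little likeness by number. Differently numbered libraries were not compared, so these values cannot decide whether the samples were paired. A replicate block called 671 genes higher and 454 lower, 4 and 1 of the list genes and no member.

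Library depth is not in TPM, so differences in low genes such as *Ihh* and *Hhip* were not detectable below their spread, and the reads behind values near 0.5 TPM are unknown.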
